A study of Mus musculus with 6 samples.

Results

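The genes described here are 52 genes of mitosis, chosen by name because their products build or steer the spindle, the kinetochores and the division of the cell. The choice was made with earlier results of these data known, so the counts below are a description. Of the 52, 50 had a probe set annotated to them alone and were measured, among 19752 genes in all, and Ccnb1 and Sgol1 were not analysed here. They were followed in regulatory T (Treg) cells, the Foxp3-expressing CD4 T cells that restrain immune responses, from the pancreas (3 arrays) and the spleen (3 arrays) of untreated female NOD.Foxp3-ires-gfp mice. NOD mice develop autoimmune diabetes on their own, and these animals were 10 weeks old and still prediabetic. All carried the same reporter, which expresses green fluorescent protein from the Foxp3 gene, and the labels give their background as NOD NRB_SFB+. Cells were sorted in 2 rounds as DAPI- CD45+ TCRb+ CD4+ GFP+ cells, and their amplified RNA was measured on Mouse Gene 1.0 ST arrays from Affymetrix. Since the labels leave unsaid whether an array stands for 1 mouse or for a pool, the p-values reflect just how far these samples differ from one another, and that spread may be technical.

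Before a cell divides, cyclin-dependent kinase 1 bound to B-type cyclins starts mitosis, condensins compact the chromosomes, and microtubules of the spindle attach to them at kinetochores. The spindle checkpoint holds the cell until every kinetochore is attached, after which the anaphase-promoting complex destroys the cyclins and the guard of the cohesin cleaving enzyme, and the cell is cut in 2. Most of these genes are silent in resting lymphocytes and are transcribed late in the cycle, so in a mixture of cells their summed RNA is widely used as a measure of the dividing share. In RNA from a whole sorted sample, more dividing cells cannot be told apart from more of each RNA per dividing cell.

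All 50 measured genes had a higher mean in pancreatic than in splenic Treg cells, and the median difference was 1.12 on the log2 scale, a 2.17-fold higher level. Over all 19752 genes the median was 0.00 and 49.8% had a higher mean in pancreas. The 50 fitted differences lay between 0.34 and 1.67, and 8 of the genes were below the background level on all 3 spleen arrays, so that their fitted values have no exact rank. For 47 of the 50, every pancreas array lay above every spleen array, which was the case for 4.57% of all genes, and for 0 was it the reverse, beside 5.81%. The 3 that overlapped were Espl1, Ttk and Kif20b. With limma's p adjusted over all genes by Benjamini-Hochberg, and a threshold of 0.05, 18 of the 50 rose in pancreas, beside 0.547% of all genes, and 0 fell, beside 0.132%. At an unadjusted limma p under 0.05, 47 were higher and 0 lower in pancreas, beside 3.20% and 3.64% of all genes. Of the 32 that missed the threshold, the nearest were Cenpe (adjusted p = 0.0563), Plk1 (0.0569) and Kif18b (0.0606).

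**Figure D1:**
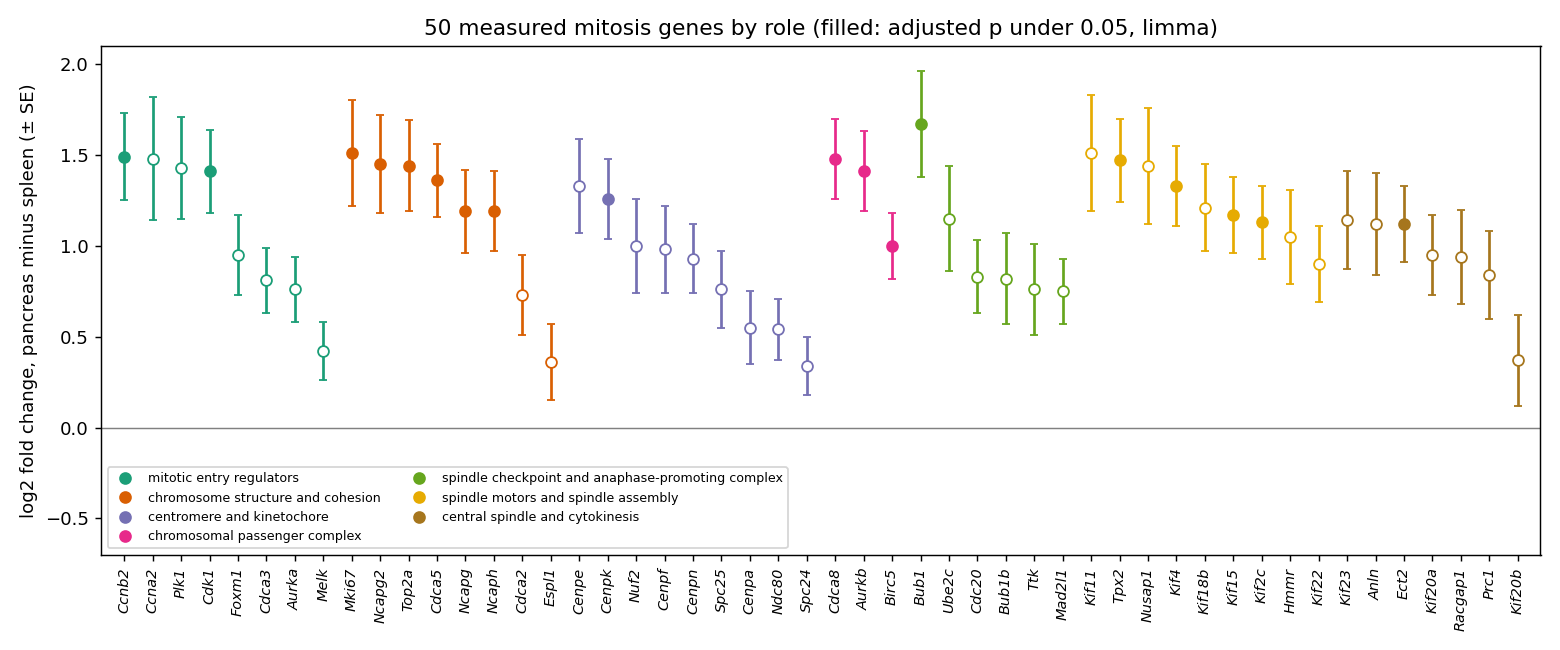
Log2 fold change of the 50 measured genes, pancreas minus spleen, with its standard error from limma, grouped and coloured by role; filled points passed an adjusted p under 0.05. All 50 points lie above 0, between 0.34 and 1.67, and each role has members near or above 1.

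The number of calls depended on single arrays. With 1 array left out, the median was lowest at 0.93 (spleen array 3 absent) and highest at 1.26 (spleen array 2 absent), and all 50 stayed higher in pancreas in each of the 6 fits. The genes past the test numbered 4 without pancreas array 1, 1 without pancreas array 2, 32 without pancreas array 3, 2 without spleen array 1, 17 without spleen array 2 and 2 without spleen array 3. No gene of the 50 passed in all 6 of these fits. Cdca5, which encodes the cohesion protector sororin, passed in 5, and Cdca8 (the passenger subunit borealin) and Tpx2 (a spindle assembly factor) passed in 4. Centring every array on its own median left 4 calls (Aurkb, Ccnb2, Cdca5 and Cdca8) with a median of 1.11, and a common median and interquartile range left 1, Cdca8, with a median of 1.07. With quantile normalization 20 passed, 16 of them among the 18, with a median of 1.06. Raising values under the background level to that level left 0 limma calls, with 42 at an unadjusted p under 0.05 and a median of 0.89. Calls over all genes went from 134 to 3 with it. Ccnb2, above background on every array, kept its difference of 1.49 but had a limma adjusted p of 0.429.

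**Figure D2:**
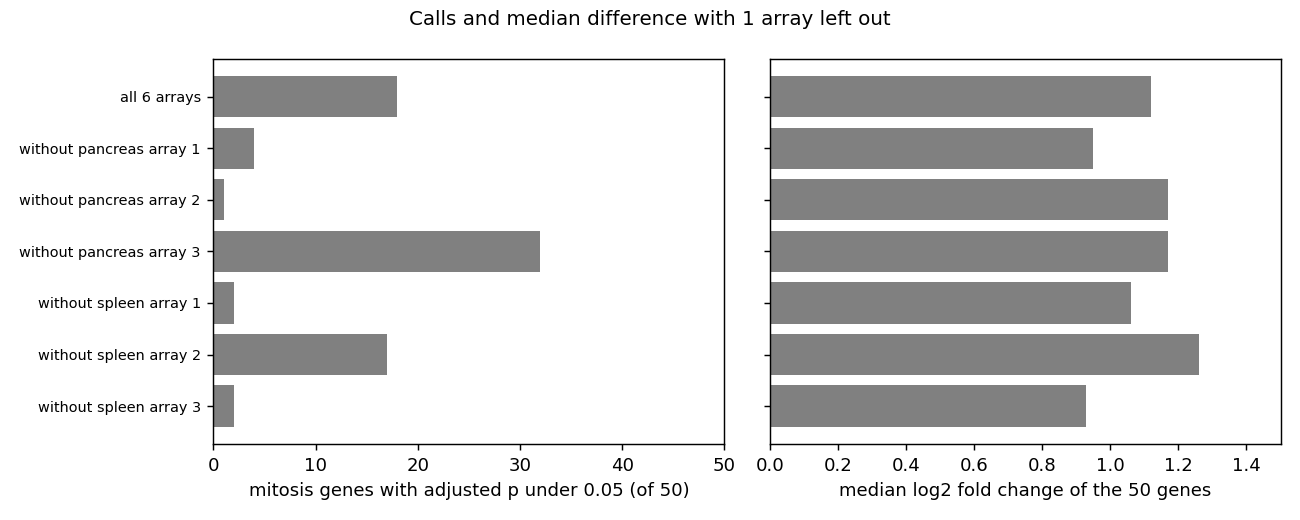
Left, the number of the 50 genes with an adjusted p under 0.05 (limma); right, their median log2 fold change, pancreas minus spleen, with all 6 arrays and with each array left out. The count runs from 1 to 32, while the median stays between 0.93 and 1.26.

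Most of the members whose promoters were at hand, 36 of 45, share a promoter sequence that the choice of genes did not use. Many genes transcribed late in the cycle are known to be held silent in resting cells through the cell cycle genes homology region (CHR). The MuvB complex binds this region, and the factor NF-Y is known to drive such genes at CCAAT boxes placed just upstream. RefSeq promoters (GRCm38.p6, from 250 bases before to 50 after the start) were at hand for 45 of the 52 genes, 49 promoters in all. The CHR letters TTTGAA or TTCGAA, on either strand, stood in 38 of the 49 (77.6%), against 19.2% of the 32851 promoters in the table and 16.4% of the 18961 promoters of genes on the arrays. Within 40 bases of the start they stood in 34 of the 49 (69.4%), against 4.27% of all promoters. CCAAT, on either strand, stood in 36 (73.5%) against 37.4%, and at least 2 copies stood in 22 (44.9%) against 11.7%. The CHR and CCAAT letters can share at most 1 base, at their ends. The match of letters describes these windows and does not show that a factor bound there.

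The stretch from 110 bases before to 20 after the start is shown for 4 genes that rose and for Espl1, whose difference was 0.36, since all 5 carry both motifs. Sequences run 5′ to 3′ on the gene's own strand, and capitals mark the CHR letters and the CCAAT boxes (ATTGG where the box lies on the opposite strand). Positions are those of a motif's first base, counted from the start.
Ccnb2: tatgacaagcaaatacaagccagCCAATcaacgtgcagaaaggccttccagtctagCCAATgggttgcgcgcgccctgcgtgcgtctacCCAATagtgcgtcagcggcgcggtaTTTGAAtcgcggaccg
Cdk1: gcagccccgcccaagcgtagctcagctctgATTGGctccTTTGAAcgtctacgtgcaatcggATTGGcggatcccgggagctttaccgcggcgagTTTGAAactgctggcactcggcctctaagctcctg
Cdca8: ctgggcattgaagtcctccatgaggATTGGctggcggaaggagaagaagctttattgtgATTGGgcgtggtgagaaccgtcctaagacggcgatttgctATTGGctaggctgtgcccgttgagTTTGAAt
Bub1: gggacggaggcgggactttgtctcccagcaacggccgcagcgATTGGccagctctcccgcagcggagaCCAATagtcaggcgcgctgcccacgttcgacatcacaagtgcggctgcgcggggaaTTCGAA
Espl1: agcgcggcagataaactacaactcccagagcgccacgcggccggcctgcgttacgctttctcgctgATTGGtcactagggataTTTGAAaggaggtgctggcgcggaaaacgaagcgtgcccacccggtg

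The Ccnb2 stretch (chr9:70421535-70421664, minus strand) holds CCAAT at -87, -54 and -21 and the CHR letters at 5. That of Cdk1 (chr10:69352893-69353022, minus strand) holds boxes at -80 and -48 and CHR letters at -71 and -15. That of Cdca8 (chr4:124936898-124937027, minus strand) has boxes at -85, -51 and -11 and the CHR letters at 14. That of Bub1 (chr2:127831840-127831969, minus strand) has boxes at -68 and -42 and the letters TTCGAA at 15. In Espl1 (chr15:102296183-102296312, plus strand) there is 1 box at -44, with the CHR letters at -27. Ccnb2, Cdk1, Cdca8 and Bub1 passed the test and Espl1 did not. Among members with a promoter, the CHR letters stood in 13 of the 16 that passed and in 22 of the 27 measured ones that did not.

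The regulators of entry into mitosis were higher in pancreas in all 8 measured cases, with a median difference of 1.18, and 2 of the 8 passed the test. Ccnb2 encodes a B-type cyclin, the partner that activates the mitotic kinase. Its log2 intensity was 10.54, 10.64 and 10.72 on pancreas arrays 1 to 3 and 9.02, 9.71 and 8.70 on spleen arrays 1 to 3. The pancreas arrays lay close together and the spleen arrays far apart, without overlap, and the difference was 1.49 ± 0.24 (SE, limma adjusted p = 0.0207), or 2.81-fold. Cdk1, the gene of that kinase, was at 8.73, 8.62 and 8.92 in pancreas and at 7.34, 7.83 and 6.87 in spleen, 2.65-fold higher (adjusted p = 0.0245). Both calls ended without pancreas array 1, pancreas array 2, spleen array 1 or spleen array 3, with an adjusted p of up to 0.0870 for Ccnb2 and 0.0769 for Cdk1. Ccna2, the A-type cyclin gene, had nearly the same difference, 1.48, but its spleen arrays spread from 8.11 to 9.83 and it did not pass (adjusted p = 0.112). The kinase genes Plk1 (1.43), Aurka (0.76) and Melk (0.42) did not pass either. Foxm1, which encodes the transcription factor that drives many of these genes late in the cycle, was at 7.96, 7.73 and 7.17 in pancreas and 6.67, 6.88 and 6.48 in spleen. Its groups did not overlap, yet the difference of 0.95 ± 0.22 (SE) missed the threshold (adjusted p = 0.112), as did Cdca3 (0.81), whose product promotes mitotic entry.

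Of the genes of chromosome structure and cohesion, 6 of 8 measured members passed the test, with a median of 1.28. Mki67, the gene of the Ki-67 antigen that coats mitotic chromosomes and marks cycling cells, was at 10.44, 10.19 and 10.52 in pancreas and 8.70, 9.61 and 8.32 in spleen. Spleen array 2 stood nearest to the pancreas arrays, 0.58 below the lowest of them, and the difference was 2.85-fold (adjusted p = 0.0473). Top2a encodes the topoisomerase that untangles sister chromatids. It was at 9.51, 8.96 and 9.11 in pancreas and at 7.79, 8.21 and 7.26 in spleen, 2.71-fold higher (adjusted p = 0.0295). Cdca5 was at 7.06, 6.81 and 6.46 in pancreas, and all 3 spleen arrays (5.27, 5.63 and 5.35) were below the background level, a log2 intensity of 6.0, so its level was at least 1.72-fold higher (adjusted p = 0.0125). Of the 6 fits with 1 array left out, the call of Cdca5 ended in that without pancreas array 2 (adjusted p = 0.0654).

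The 3 condensin genes of the set, Ncapg, Ncaph and Ncapg2, all rose, but 0 of 5 other condensin genes passed the limma test, namely Ncapd2 (0.93), Smc2 (0.59), Ncaph2 (0.12), Ncapd3 (-0.21) and Smc4 (-0.40). At an unadjusted limma p under 0.05, Ncapd2 and Smc2 were higher and Smc4 lower in pancreas. Ncapg (1.19) and Ncaph (1.19) belong to condensin I and Ncapg2 to condensin II, the complexes that compact chromosomes. Ncapg2 was above background on all 3 pancreas arrays and on 0 of 3 spleen arrays, which gives at least 1.75-fold. Their calls ended without pancreas array 2, spleen array 1 or spleen array 3, those of Ncapg and Ncaph also without pancreas array 1 and those of Ncapg and Ncapg2 without spleen array 2, with an adjusted p of up to 0.187. Those of Mki67 and Top2a ended without pancreas array 1 or 2 or spleen array 1 or 3, with an adjusted p of up to 0.125 for Mki67 and 0.0900 for Top2a. Cdca2, which targets a phosphatase to chromatin at mitotic exit, was at 0.73 (adjusted p = 0.307). Espl1, the gene of separase, which cleaves cohesin at anaphase, was at 6.66, 6.36 and 5.97 in pancreas and 6.19, 5.93 and 5.80 in spleen. These groups overlapped and lay around the background level (0.36 ± 0.21 SE, adjusted p = 0.949).

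Centromere and kinetochore genes had a smaller median, 0.93, with 1 of 9 past the test, although for all 9 the arrays of the tissues did not overlap. The call was Cenpk, a subunit of the inner kinetochore, which had a mean below background and 0 of 3 spleen arrays above it, so that its level was at least 1.22-fold higher (adjusted p = 0.0307). Without pancreas array 2 or spleen array 1, 2 or 3 its call ended, with an adjusted p of up to 0.113. Cenpe, a kinetochore motor gene, was at 7.66, 6.83 and 7.05 in pancreas and 5.88, 6.27 and 5.39 in spleen, with a difference of 1.33 ± 0.26 (SE, adjusted p = 0.0563). Cenpn, whose product reads the centromeric nucleosome, was at 7.67, 7.79 and 7.73 against 6.77, 7.14 and 6.49 (0.93, adjusted p = 0.0661). The pancreas arrays of Cenpn lay close together and its spleen arrays further apart, without overlap. The gene of that nucleosome's histone, Cenpa, was at 0.55 (adjusted p = 0.472).

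The 4 genes of the Ndc80 complex, the coupler between kinetochore and microtubule, had fitted differences of 1.00 (Nuf2), 0.76 (Spc25), 0.54 (Ndc80) and 0.34 (Spc24). Spc25 was below background on all spleen arrays, so at least 1.04-fold higher, and also on pancreas array 3 (5.76). Of the 4, 0 passed the limma test at an adjusted p under 0.05, against 3 of 4 at an unadjusted p under 0.05. Spc24 was at 6.04, 6.21 and 6.17 in pancreas and 5.84, 5.93 and 5.64 in spleen. Its pancreas arrays were just above background and its spleen arrays all below it, for at least 1.10-fold (adjusted p = 0.805). Cenpf, a large coiled-coil protein gene of the outer kinetochore, was at 0.98 (adjusted p = 0.133).

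Of the chromosomal passenger complex, which corrects wrong attachments and then moves to the midzone, the 3 genes in the set passed the test, whereas Incenp, the gene of its scaffold subunit, was measured on another list at 0.63 and did not (adjusted p = 0.304). Aurkb, its kinase, was at 8.96, 8.87 and 8.77 in pancreas and 7.37, 7.93 and 7.08 in spleen. Cdca8 was at 7.83, 7.60 and 7.62 against 6.18, 6.66 and 5.77. In both genes the pancreas arrays stood well apart from every spleen array, by 0.84 for Aurkb and by 0.94 for Cdca8, the widest gap of the 50 genes. The differences were 2.65-fold (adjusted p = 0.0170) and 2.79-fold (adjusted p = 0.0157), and that of Birc5, the gene of survivin, was 2.00-fold (adjusted p = 0.0343), with 1 of 3 spleen arrays above background. The call of Cdca8 ended without pancreas array 1 or 2 (adjusted p up to 0.0631). That of Aurkb ended without pancreas array 1 or 2 or spleen array 1 or 3 (up to 0.0769), and that of Birc5 held without pancreas array 3 only (up to 0.167).

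In the spindle checkpoint and at the anaphase-promoting complex, 1 of 6 genes passed and the median was 0.82. Bub1, the checkpoint kinase that also marks centromeres, was at 7.67, 7.30 and 7.49 in pancreas and at 5.60, 6.57 and 5.27 in spleen, where 1 of 3 arrays was above background. Its fitted difference was 1.67 ± 0.29 (SE, adjusted p = 0.0323). The call of Bub1 ended without pancreas array 1 or 2 or spleen array 1 or 3, with an adjusted p of up to 0.0991. Mad2l1, which encodes the checkpoint effector that holds back Cdc20, was at 9.57, 9.45 and 9.47 against 8.94, 8.88 and 8.44. Its arrays did not overlap, and the difference was 0.75 (adjusted p = 0.130). Cdc20, the activator of the complex, was at 0.83 (adjusted p = 0.142) and Ube2c, the ubiquitin-conjugating enzyme that works with it, at 1.15 (adjusted p = 0.160), with spleen arrays of Ube2c from 7.59 to 8.94. Bub1b (0.82) and Ttk (0.76) did not pass, and Ttk was below background on all 3 spleen arrays and on 1 pancreas array.

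Among spindle motors and assembly factors 4 of 9 rose, with a median of 1.21. Tpx2, which activates Aurora A on spindle microtubules, was at 7.86, 7.13 and 7.21 in pancreas and at 5.70, 6.25 and 5.85 in spleen (1.47 ± 0.23 SE, adjusted p = 0.0191). Only 1 of its 3 spleen arrays was above background, and its call ended without spleen array 1 or 3 (adjusted p up to 0.0580). Kif2c, a kinesin that takes microtubules apart at centromeres, was at 7.19, 6.85 and 6.52 against 5.79, 5.82 and 5.56. All its spleen arrays were below background, for at least 1.81-fold (adjusted p = 0.0332). The chromokinesin gene Kif4 was below background on the same 3 arrays, at least 1.52-fold (adjusted p = 0.0256), and Kif15 was 2.26-fold higher (adjusted p = 0.0383). The calls of Kif2c and Kif4 held without pancreas array 3 only (adjusted p up to 0.141), and that of Kif15 ended without pancreas array 1 or 2 or spleen array 1 or 3 (up to 0.142). Kif11, the motor that pushes spindle poles apart, had one of the largest differences, 1.51, but spleen arrays from 6.73 to 8.28, and did not pass (adjusted p = 0.0724). Nusap1 (1.44), Kif18b (1.21), Hmmr (1.05) and Kif22 (0.90) did not pass.

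For the central spindle and cytokinesis, 1 of 7 genes passed, with a median of 0.95. Ect2, the exchange factor that switches on RhoA at the division plane, was at 8.34, 7.90 and 8.28 in pancreas and 7.12, 7.39 and 6.67 in spleen, 2.17-fold higher (adjusted p = 0.0495). This call held only without pancreas array 3, and its adjusted p reached 0.188. Kif20a, a kinesin of the midzone, was at 8.10, 7.81 and 8.17 against 6.93, 7.53 and 6.78 (0.95, adjusted p = 0.105). Kif23 (1.14) and Racgap1 (0.94), which form the centralspindlin complex together, Anln (1.12) and Prc1 (0.84) did not pass. Kif20b had the smallest difference of the 7, 0.37, with overlapping arrays (adjusted p = 1.00).

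**Figure D3:**
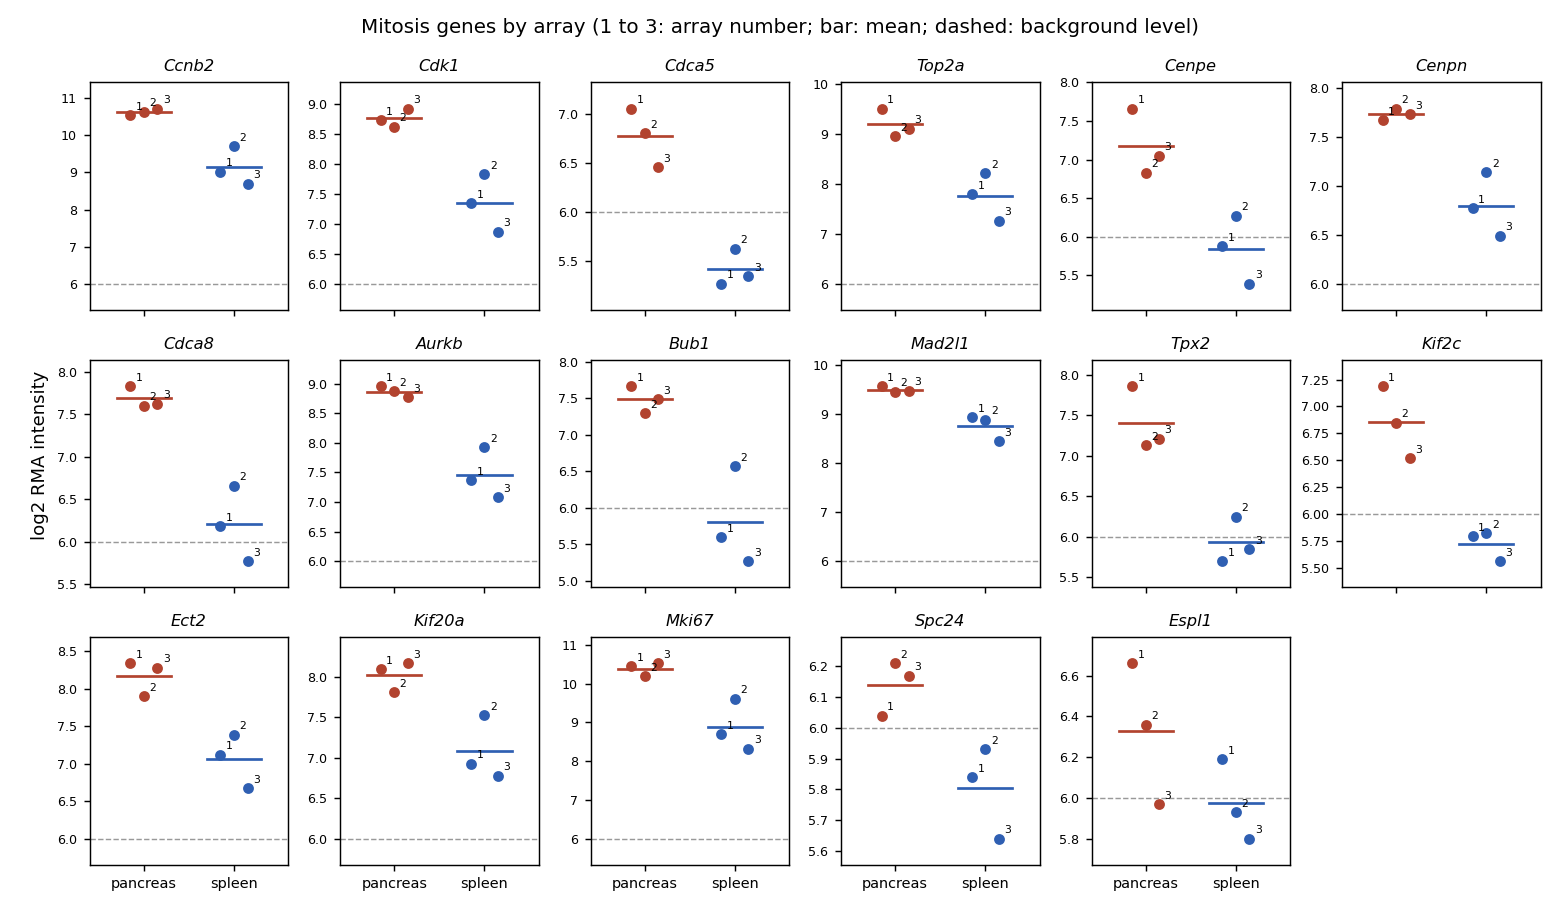
Log2 RMA intensity of 17 of the genes given with every array's value, with pancreas arrays in red and spleen arrays in blue, numbered 1 to 3, the mean as a bar and the background level of 6.0 as a dashed line; each panel has its own axis. The tissues do not overlap in 16 of the 17 panels, Espl1 being the exception, and spleen array 2 is the highest spleen array in most.

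Within the spleen the genes moved together from array to array. Spleen array 2 was the highest of the 3 for 45 of the 50 genes and spleen array 3 the lowest for 40. The full order of array 2, then 1, then 3 was met by 36 of the 50, against 13.2% of all genes. The median gap between spleen arrays 2 and 3 was 0.52, against 0.05 over all genes, and reached 1.72 for Ccna2. Set against each gene's own mean over the 6 arrays, the members' median was 0.80, 0.39 and 0.36 on pancreas arrays 1 to 3 and -0.61, -0.16 and -0.78 on spleen arrays 1 to 3. The range over the spleen arrays was wider than over the pancreas arrays for 30 of the 50. The median range was 0.63 in spleen and 0.49 in pancreas, whereas over all genes it was 0.33 and 0.48.

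**Figure D4:**
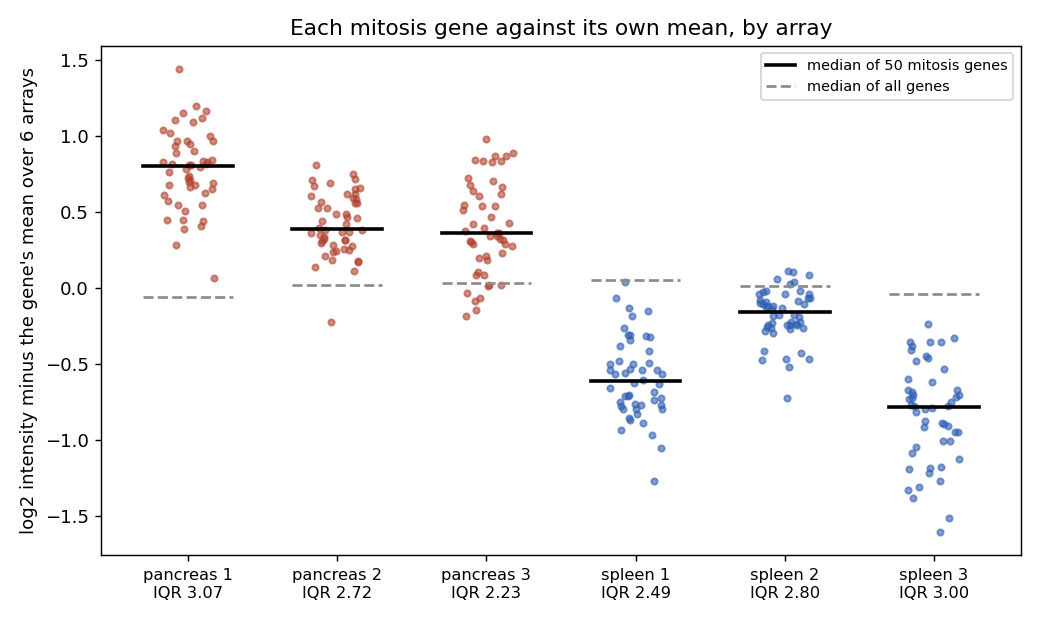
Each point is 1 of the 50 genes on 1 array, as log2 intensity minus that gene's mean over the 6 arrays; black bars are the members' medians, dashed bars the medians of all 19752 genes, and IQR is the interquartile range of the array's log2 values. The members lie at 0.80, 0.39 and 0.36 in pancreas and at -0.61, -0.16 and -0.78 in spleen, while the medians of all genes stay within 0.06 of 0.

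The arrays also differed in the width of their values, and RNA of other cells was present. The interquartile range was 3.07, 2.72 and 2.23 on pancreas arrays 1 to 3 and 2.49, 2.80 and 3.00 on spleen arrays 1 to 3. With arrays of equal width the members' median was 1.07 (common median and interquartile range, 1 call) or 1.06 (quantile normalization, 20 calls). B cell markers, of which all 11 measured had a higher mean in pancreas, 10 had an unadjusted limma p under 0.05 and 1, Cd79a, passed the test, had a summed intensity of 1842, 1033 and 2373 in pancreas and of 753, 884 and 778 in spleen. B cells can divide, and the part of their RNA in the result was not tested. Germinal centre markers summed to 386 to 428 in pancreas and 331 to 403 in spleen, and Gcsam, Mybl1 and Rgs13, 3 of the 4, were below background on all 6 arrays. Acinar markers summed to between 15446 and 32212 in pancreas and between 1231 and 3106 in spleen, and 12 of 13 passed. The part of acinar RNA was not tested. The 11 measured genes of the sort and of T cell identity, Foxp3 and Cd4 among them, were above background on every array, with 0 of 11 past the limma test (1 at an unadjusted p under 0.05) and a median difference of -0.04. With each array centred on those genes, 13 of the 50 passed with a median of 1.11.

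The other marker lists were summed in the same way. Plasma cell markers ran from 1452 to 2013 in pancreas and 1068 to 1582 in spleen. Of these 6 genes 1 passed, Jchain, below background on all 3 spleen arrays and at least 4.82-fold higher (limma adjusted p = 0.000975). Macrophage and dendritic cell markers ran from 1264 to 1363 and 961 to 1112. There Lyz2 passed (3.74-fold, adjusted p = 0.00134), and 9 of 17, Csf1r and Adgre1 among them, were below background throughout. The part of these cells' RNA in the result was not tested. CD8 T and NK markers ran from 790 to 957 and 757 to 891, with Klrd1 past the test though below background on all arrays. Erythroid precursor markers, which could bring mitotic RNA from spleen, ran from 187 to 284 and 212 to 250, with Klf1 below background throughout. Endocrine (270 to 388 and 279 to 305), neutrophil (368 to 415 and 324 to 431) and stromal, endothelial and duct markers (1143 to 1206 and 1423 to 1524) had 0 genes past the limma test, with 0, 0 and 1 at an unadjusted p under 0.05.

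Other genes of mitosis, and 22 genes of its transcriptional regulators, came from lists drawn up by function and gave fewer calls. Like the members, these lists were chosen with earlier results of these data known. Of 151 measured genes in 6 lists, 101 had a higher mean in pancreas, 3 rose (1.99%, against 0.547% of all genes) and 0 fell (against 0.132%), with a median of 0.15. Pancreas arrays lay all above the spleen arrays for 56 of the 151, against 4.57% of all genes, and all below for 6, against 5.81%. At an unadjusted limma p under 0.05, 54 were higher and 4 lower, against 3.20% and 3.64% of all genes. The 3 that rose were Stmn1, Esco2 and Ska3. Stmn1, the gene of the microtubule-destabilising protein stathmin, was at 10.11, 9.79 and 9.78 in pancreas and 8.64, 8.75 and 8.34 in spleen (1.32 ± 0.18 SE, adjusted p = 0.00952), and passed in all 6 fits with 1 array left out. Esco2, which acetylates cohesin, was at 1.37 (adjusted p = 0.0199), and lost its call without pancreas array 1 or 2 or spleen array 1 or 3 (up to 0.0672). Ska3, a kinetochore gene, was above background in pancreas only (adjusted p = 0.0482), held its call only without pancreas array 3 (up to 0.209), and is named although its mean is below background.

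By list, the median was 0.42 over 29 other kinetochore and centromere genes, where Knl1, the scaffold gene of the outer kinetochore, was at 1.26 (adjusted p = 0.0845), Cenpm at 0.79 and Incenp at 0.63. It was 0.23 over 38 genes listed as other spindle and centrosome genes. On that list Stil, below background on all spleen arrays, was at least 1.62-fold higher (adjusted p = 0.0753). Mtfr2, listed there although it is named for mitochondrial fission, was at 1.01. Among 31 other mitotic kinases, cyclins and anaphase-promoting complex genes the median was 0.23 and 0 passed (11 higher and 1 lower at an unadjusted limma p under 0.05). There Cks1b (a difference of 1.06), Cks2 (1.22) and the cyclin gene Ccnf (0.91) had the smallest limma adjusted p among genes with a mean above background. Cks1b and Cks2 encode small docking subunits of Cdk1. Over 13 cytokinesis genes the median was 0.19 and 0 passed (5 higher and 0 lower at an unadjusted limma p under 0.05), with Depdc1a at 1.37, Cep55 at 1.08 and Cit at 0.73.

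The listed genes of some complexes, picked after their values were seen, had medians at or below 0.05. Not every subunit of these complexes was listed. Of the anaphase-promoting complex, 11 listed subunits ran from -0.42 to 0.11. Of the cohesin ring and its loader and release factors, 9 listed genes ran from -0.35 to 0.15. Of the augmin complex, which nucleates microtubules from microtubules, 5 listed genes ran from -0.27 to 0.10. The medians of these groups, in that order, were -0.18, -0.25 and 0.05. Pancreas arrays lay all above the spleen arrays for 0 of these genes, against 4.57% of all genes, and all below for 1, the anaphase-promoting complex gene Cdc23 (-0.42), against 5.81%. In the condensin and cohesin list, with a median of -0.04 over 18 genes, Sgo2a, which protects cohesin at centromeres, was at 1.31 and Ncapd2 at 0.93 (adjusted p = 0.111 and 0.0578).

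The regulators of these genes, counted among the 151, formed a list of their own. Over 22 genes of MuvB, the E2F family, B-Myb and NF-Y, the median was 0.05 and 0 passed the limma test, with 5 higher and 2 lower at an unadjusted p under 0.05. The 5 genes of the MuvB core ran from -0.42 to 0.10 and the 3 NF-Y subunit genes from -0.12 to -0.03. Those with the smallest p were E2f8, an atypical E2F repressor that is itself transcribed in cycling cells (8.31, 8.43 and 7.93 in pancreas, 6.56, 7.53 and 6.47 in spleen, 1.37, adjusted p = 0.0569), E2f1 (0.70) and E2f7 (0.68). DNA replication genes had a median of 0.64 over 46 genes, with 4 past the test (8.7%, against 0.547% of all genes). Of the 46, 44 had a higher mean in pancreas, against 49.8% of all genes. For 31 of the 46 every pancreas array lay above every spleen array and for 0 below, against 4.57% and 5.81%. At an unadjusted limma p under 0.05, 35 were higher and 0 lower, against 3.20% and 3.64%. Rrm2 (1.5), Pole (1.16), Mcm6 (1.06) and Mcm10 (0.93) passed the limma test. In the fits with 1 array left out the call of Rrm2 held in 4 (lost without pancreas array 1 or 2, adjusted p up to 0.0803). Those of the others held without pancreas array 3 only (up to 0.208).

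**Figure D5:**
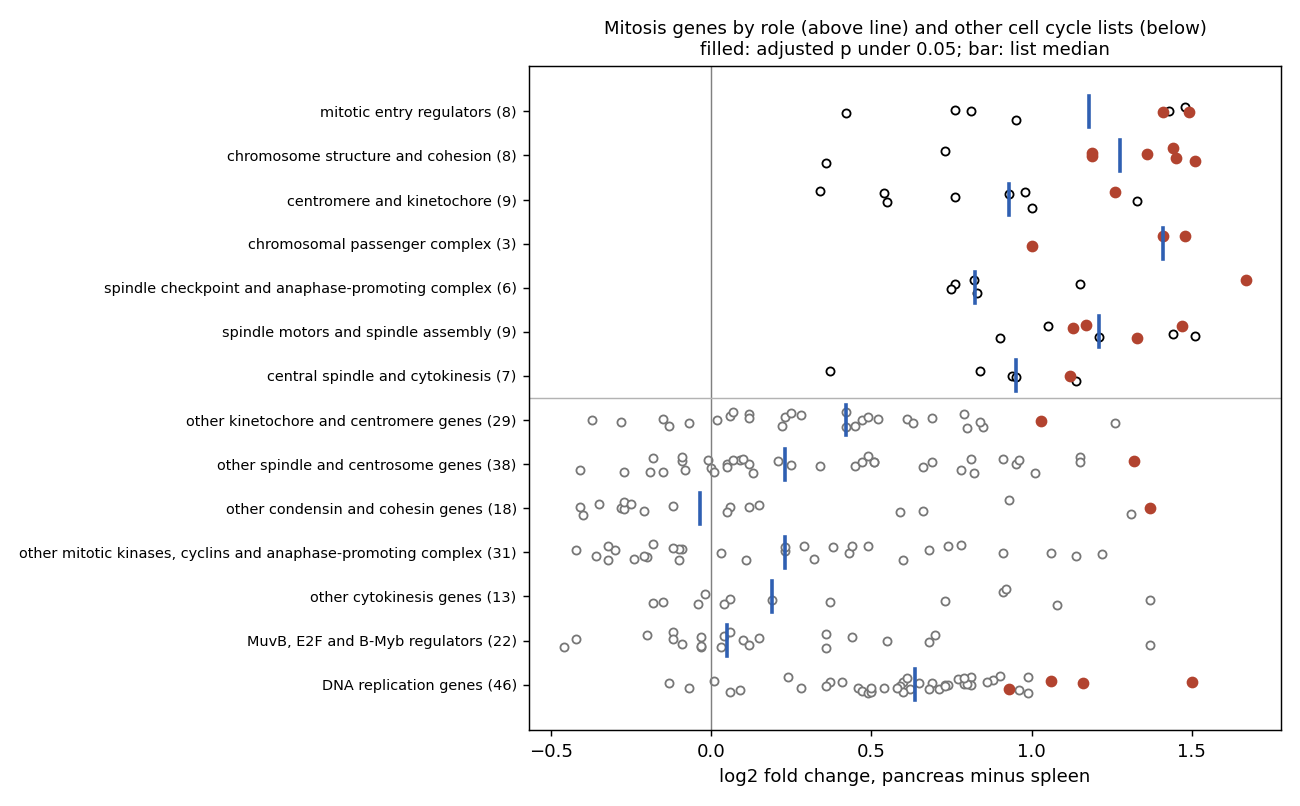
Log2 fold change, pancreas minus spleen, of every measured gene in the 7 role groups (above the line) and in the 7 other cell cycle lists (below it), with the number of genes in brackets, list medians as blue bars and genes at an adjusted p under 0.05 filled. The role groups have medians from 0.82 to 1.41, the lists below from -0.04 to 0.64.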

How the data were processed

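The authors deposited 1 linear intensity per probe set and array; the submitters' processing notes name RMA and Affymetrix Power Tools, while versions and library files are not given in the sources used here, and the arrays do not share 1 distribution. They were taken to log2 with no pseudocount. Of 24922 probe sets, 21425 name exactly 1 gene; with the probe set of highest mean per gene this left 19752 genes. The background level was the 95th percentile of the mean over 1194 olfactory and vomeronasal receptor genes, an intensity of 63.9, and 45 of the 50 measured members had a mean above it. Where all spleen arrays were below it, the fold is a lower bound against that level. Median intensity ran from 82.0 to 92.0 per array.

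Tissues were compared with limma 3.58.1 in R 4.3.3 (lmFit and eBayes, all 6 arrays, no covariates, two-sided, Benjamini-Hochberg adjustment over all genes, threshold 0.05), tested on simulated data. Members, lists and tests were chosen with earlier results of these data known. Every array's value is given for the 2 members per role above background with the smallest adjusted p, for Mki67, Top2a and Cdk1, and for the 2 smallest differences; other members are given by their difference. Other lists name up to 3 genes above background with the smallest adjusted p, and Ska3, Mcm6, the condensin genes Smc2, Smc4, Ncapd3 and Ncaph2, and the complexes' ranges lie outside that rule and were chosen after their values were seen. Foxm1 was given in full after its values were seen. Promoters were taken from RefSeq, matched by gene ID through current or older symbols. Alternatives covered normalization, background, dim genes, probe sets, variance model, array weights, replicate block and each array left out; centring on T cell identity genes was added after seeing the data. Figures used matplotlib 3.10.9.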

Additional observations from a re-analysis of the deposited data

How the results depend on the processing

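In all 16 alternatives every tested mitosis gene kept a higher mean in pancreas, and their median difference, 1.12, ran from 0.93 to 1.26 with 1 array left out. With array weights, which favoured pancreas array 2 (3.15) and spleen array 2 (4.01), it was 0.76, 38 of the 50 passed, as did 1684 of all genes and 74 of the 197 genes on the other cell cycle lists. With each array centred on its median, 64 of all genes, 4 mitosis genes and 3 listed genes passed. With a common median and interquartile range 66 of all genes passed and 1 mitosis gene, and with quantile normalization 212 of all genes and 28 listed ones. With dim genes left out 19 listed genes passed, and with a trended and robust variance 13, against 7. With intensities below background raised to it, 3 of all genes passed, and 0 mitosis and 0 listed genes (limma), although 42 and 68 had an unadjusted p under 0.05. With 1 array left out the counts ran from 64 to 262 over all genes, from 1 to 32 for the mitosis genes and from 1 to 36 for the listed genes. The causes of these shifts were not tested. With the replicate block, 22 mitosis genes passed, 16 of them among the 18, and 132 of all genes and 8 listed ones. The labels do not say that equal numbers pair arrays, so the numbers were not taken as pairs. Same-numbered arrays deviated with correlations of -0.18, 0.05 and -0.63, and differently numbered ones with correlations from -0.51 to 0.50. With 3 arrays per tissue these correlations cannot show whether arrays were paired. For arrays, 3 per tissue limit the precision.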

Other observations

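Motif letters were also counted in the mitosis genes that did and did not pass the test, after those results were seen; the difference was not tested. Letters of the E2F site (TTCCCGC or else TTGGCGC or else TTCGCGC or else TTGCCGC, either strand) stood in 13 of the 49 promoters (26.5%), against 9.57% of all promoters and 12.9% of those of genes on the arrays, and TTGGCGC can share letters with a CCAAT box. They stood in 9 of the 16 genes with a promoter that passed the test, among them Cdk1, Mki67, Ncapg, Ncaph and Cdca5, and in 2 of the 27 measured genes that did not, Cenpn and Hmmr. The CHR letters stood in 13 of 16 and 22 of 27, and CCAAT in 10 of 16 and 20 of 27. Which genes passed depended on single arrays, with 1 to 32 of the 50 past the test when 1 array was left out. Without pancreas array 3, Cenpn and Hmmr passed as well (limma adjusted p = 0.0369 and 0.0443).

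Outside the set, 86 genes on the arrays had the CHR letters within 40 bases of the start and at least 2 CCAAT boxes. Of these, 1 rose at an adjusted p under 0.05 (1.16%, limma) and 17 had pancreas arrays all above the spleen arrays (19.8%), against 0.547% and 4.57% of all genes. With the genes of the cell cycle and marker lists left out too, 6 of 71 did (8.45%), with a median difference of 0.04. Of the 71, 3 were at least 2-fold higher in pancreas, against 0.82% of all genes. They were Asf1b, a histone chaperone gene, H2bc3, a histone gene, and Prr11.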
